A study of Rattus norvegicus with 12 samples.

Results

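The mitochondrial genome of the rat carries a small set of genes, and 36 of the 19687 genes counted in these lungs lay on it. They were taken as every gene whose chromosome was given as MT in the deposited tables of drug against vehicle, whatever its expression. By the deposited annotation, 13 encode proteins, 2 encode ribosomal RNA and 21 encode transfer RNA. Of the 36 genes, 27 lie on the plus strand and 9 on the minus strand, and the minus-strand genes are Mt-nd6 and 8 of the transfer RNA genes.

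The lungs came from 12 rats with monocrotaline (MCT) pulmonary hypertension, 3 per group. MCT is a plant toxin that injures the pulmonary vessels, and it was given at 60 mg/kg. Every animal used here received it, including those on vehicle, so no healthy lung is in the comparison. The rats were 9 weeks old by their labels and male Sprague-Dawley rats by the study's methods, which give osmotic minipumps as the route of each drug. The AngII group received angiotensin II, the balanced agonist of the angiotensin II type 1 receptor (AT1R), at 1 mg/kg/day. The TRV023 group received a β-arrestin-biased AT1R agonist at 10 µg/kg/min. The losartan group received an AT1R blocker at 10 mg/kg/day, and the vehicle group received PBS. Doses and their units differed between drugs, and the labels give no day of collection. The question posed by the design was how the lung transcriptome of MCT rats differs under each AT1R ligand.

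Mitochondrial DNA is a closed circle that is transcribed from both strands into long precursors. The transfer RNAs sit between most of the longer genes, and enzymes cut them out to release the messenger and ribosomal RNAs, whose levels are then set further by stability and decay. The proteins are core subunits of respiratory complexes I, III and IV and of ATP synthase (complex V), and every other subunit of these machines is made from nuclear genes. Each cell holds many copies of this genome, so its transcripts are among the most abundant in tissue RNA.

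Each library held between 16106337 and 20096877 counted reads. Surfactant, club cell, alveolar type 1 and endothelial genes used as lung markers were expressed in every library, with summed levels of 21762 to 29304 CPM (reads of a gene scaled to a fixed library total) with AngII, 26940 to 33040 with TRV023, 22796 to 44148 with losartan and 19227 to 34803 with vehicle. Reads of whole lung do not tell a change in the proportion of cells rich in mitochondria from a change in mitochondrial RNA per cell.

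Mitochondrial genes took a larger share of the reads in AngII-treated lungs than in vehicle-treated lungs. The 3 AngII libraries devoted 9.62%, 12.1% and 12.3% of their counted reads to the mitochondrial genome, against 6.52%, 7.55% and 5.65% in the vehicle libraries. TRV023 libraries gave 4.36%, 4.58% and 7.07%, and losartan libraries gave 5.11%, 7.36% and 10.02%. The AngII libraries were all above the vehicle libraries, while the TRV023 and losartan libraries overlapped vehicle. Among the other 9 libraries, 1 losartan library (Los_965) reached the AngII range.

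The group means were 11.4% ± 1.51 with AngII, 5.34% ± 1.51 with TRV023, 7.50% ± 2.46 with losartan and 6.57% ± 0.950 with vehicle (SD, n = 3 each). The mean log2 share differed from that of vehicle by 0.79 with AngII, -0.33 with TRV023 and 0.15 with losartan. The spread within the losartan group was the widest of the 4. Mitochondrial genes filled 6, 7 and 7 of the 10 most abundant places in the AngII libraries, 2, 3 and 5 with TRV023, 3, 5 and 7 with losartan, and 5, 5 and 3 with vehicle.

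**Figure D1:**
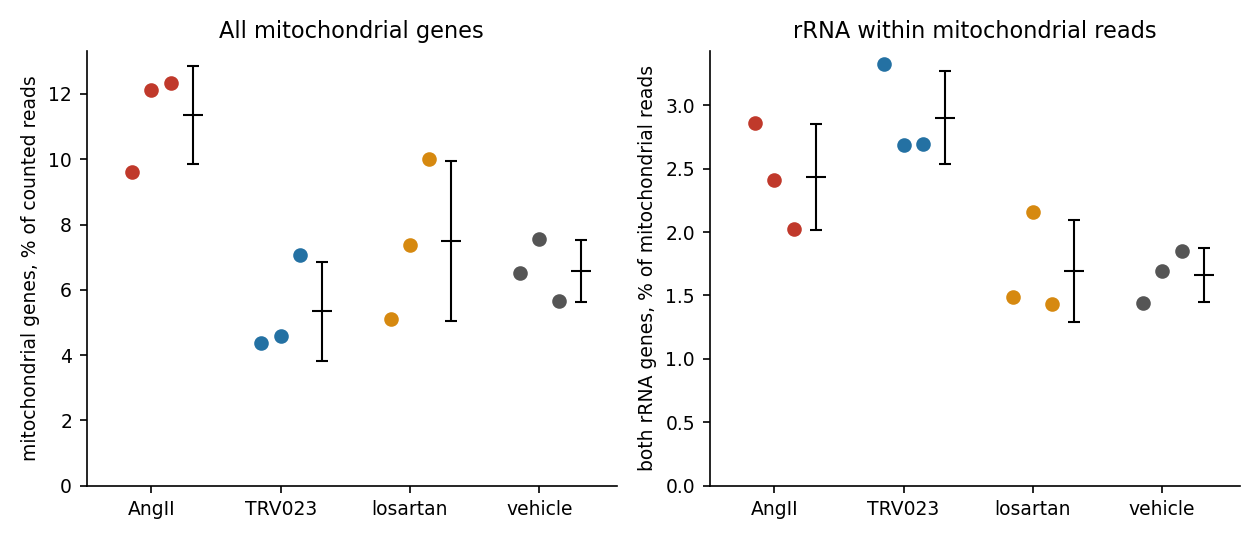
Left, the share of counted reads from all mitochondrial genes, in percent, and right, the share of mitochondrial reads from both ribosomal RNA genes, in percent. Each point is 1 library and bars give the mean ± SD (n = 3). The AngII libraries lie between 9.62% and 12.3% in the left plot, above all vehicle libraries, and in the right plot both AngII and TRV023 lie above vehicle.

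The 13 protein genes kept 1 order of abundance. In vehicle lungs the mean FPKM (reads scaled to gene length and library total, a level per length) was highest for Mt-co1, the catalytic subunit of cytochrome c oxidase, at 14590 ± 2284. It was followed by Mt-atp6 (10405 ± 879), Mt-co3 (9399 ± 1041) and Mt-co2 (8246 ± 1644). Mt-cyb, the complex III subunit cytochrome b, averaged 4830 ± 820 FPKM. The complex I subunits ranged between 3815 ± 608 FPKM for ND1 and 1064 ± 162 FPKM for Mt-nd6. Mt-atp8 was lowest, at 164 ± 37.8 FPKM (SD, n = 3 for each value). The ranges of neighbours in this order often overlapped. With the 2 ribosomal RNA genes included, the vehicle ranges overlapped in 8 of 14 neighbouring pairs. These ranges do not compare the genes within a library, so an overlap does not mean that 2 genes changed places. Mt-co1 stood apart from Mt-atp6, Mt-co2 from Mt-cyb, Mt-nd4 from Mt-nd4l and Mt-nd4l from ND3. The order of the 13 protein genes by group mean was identical in the AngII, TRV023, losartan and vehicle groups.

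Several of these genes share bases. Mt-atp8 and Mt-atp6 overlap by 43 bases, Mt-atp6 and Mt-co3 by 1, and Mt-nd4l and Mt-nd4 by 7, all on the same strand. Mt-nd5 and Mt-nd6 overlap by 23 bases on opposite strands. The counting rule for shared bases is not given in the sources used here, so Mt-atp8, which spans only MT positions 7758 to 7961, is the least certain of the protein genes.

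Complex IV, the terminal oxidase of the chain, is represented by Mt-co1, Mt-co2 and Mt-co3. Mt-co1 had 22684, 27816 and 28976 FPKM in AngII lungs, against 14150, 17062 and 12558 FPKM in vehicle lungs. It had 9643, 10758 and 15588 FPKM with TRV023 and 11493, 16288 and 22946 FPKM with losartan. The AngII values did not overlap vehicle, and the edgeR log2 fold change was 1.0 (SE 0.22), with an adjusted p of 0.295 over all genes tested. Mt-co2 and Mt-co3, the remaining catalytic-core subunits, had log2 fold changes of 0.97 (SE 0.21) and 0.93 (SE 0.20) with AngII.

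Complex V, which makes ATP, takes Mt-atp6, the subunit that forms the proton path, and the small subunit Mt-atp8. Mt-atp6 had 14141, 19598 and 18560 FPKM with AngII, against 10422, 11274 and 9517 FPKM with vehicle, a log2 fold change of 0.89 (SE 0.20). Mt-atp8 had 353.5, 350.2 and 476.8 FPKM with AngII, against 130.2, 204.6 and 156.0 FPKM with vehicle. Its log2 fold change of 1.40 (SE 0.21, edgeR adjusted p = 0.192) was the highest of the 13. With losartan Mt-atp8 had 130.8, 252.9 and 384.4 FPKM, a range that included vehicle values, and the log2 fold change was 0.72 (SE 0.38). Relative to Mt-atp6, Mt-atp8 stood at 2.5%, 1.79% and 2.57% of its FPKM with AngII, against 1.25%, 1.82% and 1.64% with vehicle, and these overlapped.

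Complex I, the entry point for electrons from NADH, takes the 7 ND subunits, and complex III takes Mt-cyb. With AngII, the complex I genes had log2 fold changes between 0.75 (ND1, SE 0.20) and 0.92 (ND3, SE 0.18), with a median of 0.83. ND1 had 4836, 6191 and 6420 FPKM with AngII, against 3783, 4439 and 3224 FPKM with vehicle. Mt-nd6, the only protein gene on the minus strand, had 1355, 2047 and 1826 FPKM with AngII, against 1100, 1205 and 887.5 FPKM with vehicle. Its log2 fold change of 0.85 (SE 0.21) lay within the range of the plus-strand complex I genes. Mt-cyb had 6684, 8550 and 8739 FPKM with AngII, against 4795, 5666 and 4028 FPKM with vehicle, and a log2 fold change of 0.87 (SE 0.21).

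Over the protein genes as a group, all 13 had AngII libraries above every vehicle library, with a median log2 fold change of 0.87, where the median over all 15059 genes tested was -0.02. Over all genes tested, 9.46% had AngII libraries all above vehicle. By edgeR's quasi-likelihood test, 13 of 13 had an unadjusted p under 0.05, all with higher levels in AngII lungs, beside 6.54% of all genes higher and 5.39% lower at that p. None passed Benjamini-Hochberg adjustment, with adjusted p between 0.192 and 0.338. The 13 genes are measured in the same 6 libraries, so they are not 13 separate observations.

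**Figure D2:**
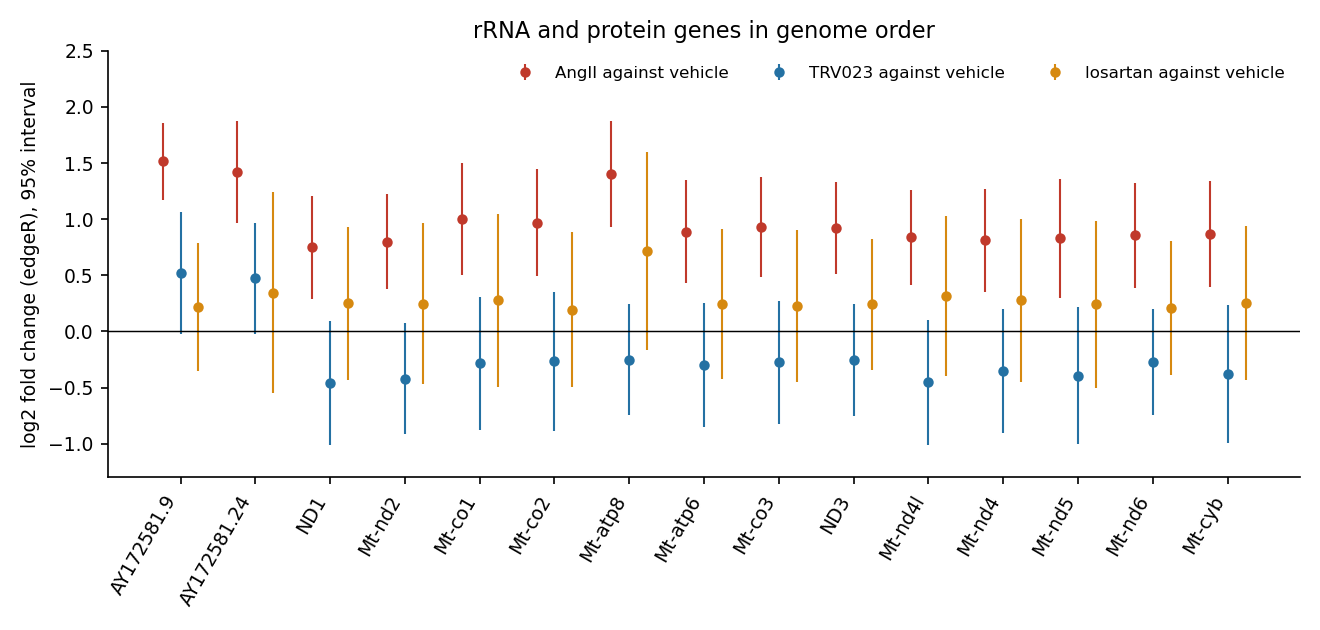
Fitted log2 fold change of each drug against vehicle for the ribosomal RNA and protein genes in genome order. Points are edgeR estimates and bars their 95% intervals (3 libraries per group). The AngII points lie between 0.75 and 1.52, and the TRV023 points are below 0 for the 13 protein genes and above 0 for both ribosomal RNA genes.

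TRV023 gave lower point estimates for every protein gene, but none was separated from vehicle. The log2 fold changes of the 13 genes ran from -0.46 (ND1, 95% interval -1.01 to 0.09) to -0.25 (Mt-atp8, 95% interval -0.74 to 0.24), with a median of -0.30 beside a median of -0.00 over all genes. No mitochondrial protein gene had an unadjusted edgeR p under 0.05. Across all genes tested, 2.61% were higher and 2.96% were lower at that p. The TRV023 libraries were not alike. Trv_917 and Trv_918 were below every vehicle library in 13 of 13 protein genes, whereas Trv_930 was above every vehicle library in 2 and below in 0. No share over all genes was counted for single libraries, so these counts only describe the spread.

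Losartan gave positive estimates for the 13 protein genes, with a median of 0.25 and a range of 0.20 to 0.72. The direction rested on which libraries were included. Without Los_965, ND1, Mt-nd2, Mt-co2, Mt-co3, ND3, Mt-nd5, Mt-nd6 and Mt-cyb were below 0 and the median was -0.01. Without the animals numbered 96x, which leaves 1 losartan library, all 13 were below 0, with a median of -0.49. In the full comparison none had an unadjusted p under 0.05, at which 0.686% of all genes were higher. The 3 libraries spread to either side of vehicle. Los_925 was below every vehicle library in 11 protein genes, Los_964 was above in 5, and Los_965 was above in 13. Here too, no share over all genes was counted for single libraries. The intervals were wide, as for Mt-co1 (0.28, 95% interval -0.49 to 1.05), and they contain both 0 and values near the AngII estimates.

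**Figure D3:**
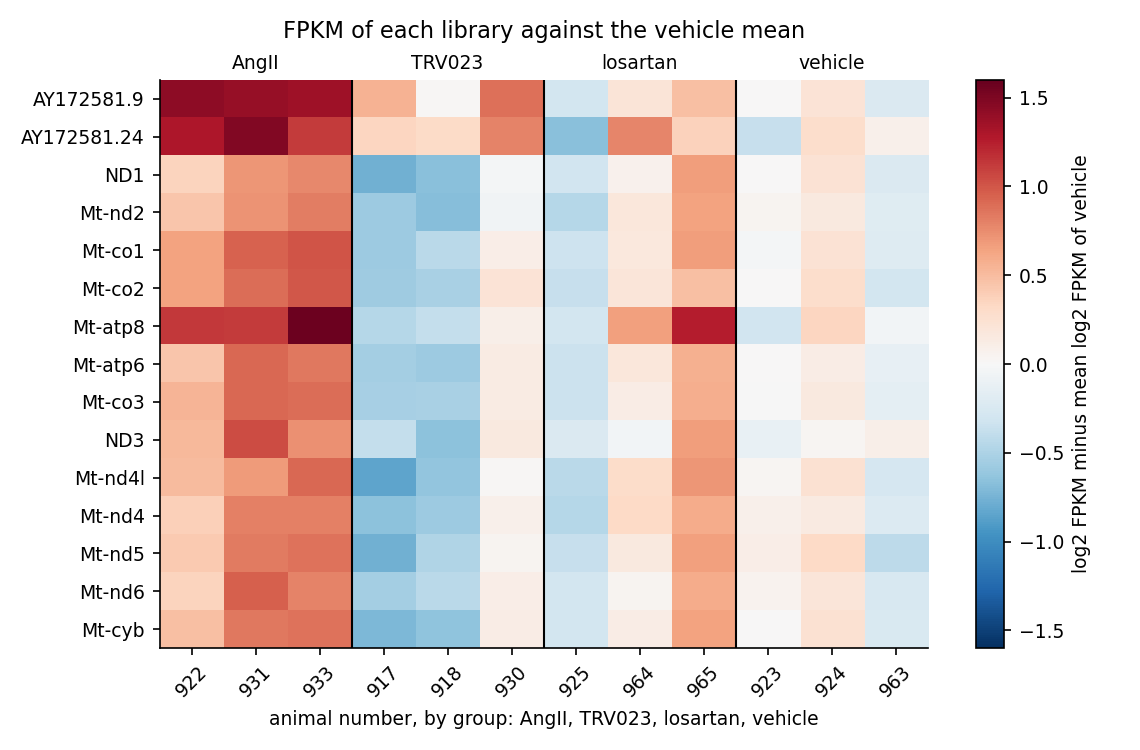
FPKM of each library relative to the vehicle mean, on the log2 scale, for the ribosomal RNA and protein genes in genome order. Columns are animals, grouped as AngII, TRV023, losartan and vehicle. AngII columns are above the vehicle mean for every gene drawn, and Los_925 and Los_965 differ in sign for every protein gene.

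The 2 ribosomal RNA genes, which supply the RNA of the mitochondrial ribosome, had the highest estimates of both classes with AngII and, unlike the protein genes, positive estimates with TRV023. The files list them only by identifier, AY172581.9 at MT positions 68 to 1025 (958 bases) and AY172581.24 at positions 1094 to 2664 (1571 bases), both on the plus strand. The genome build is not given in the sources used here. AY172581.9 had 1263, 1224 and 1191 FPKM in AngII lungs, 686.5, 474.1 and 856.2 FPKM in TRV023 lungs, 380.8, 536.4 and 651.3 FPKM in losartan lungs and 469.5, 543.0 and 398.9 FPKM in vehicle lungs. AY172581.24 had 981.4, 1117 and 864.1 FPKM in AngII lungs, 504.4, 494.1 and 691.0 FPKM in TRV023 lungs, 251.7, 683.9 and 517.2 FPKM in losartan lungs and 309.8, 483.9 and 424.0 FPKM in vehicle lungs. The AngII values of both genes lay above all other libraries of the series.

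Of the 30 mitochondrial genes tested with AngII, edgeR called 1, AY172581.9, which rose with a log2 fold change of 1.52 (SE 0.15) and an adjusted p of 0.0347. Across all genes tested, 0.0133% were called. Leaving out any 1 of the 3 AngII or 3 vehicle libraries ended the call. AY172581.24 had a log2 fold change of 1.42 (SE 0.20, edgeR adjusted p = 0.192). The counts behind these values were 19674 to 22661 with AngII and 7675 to 10031 with vehicle for AY172581.9, and 23408 to 32881 with AngII and 9714 to 14660 with vehicle for AY172581.24. By DESeq2, 16 of the 30 mitochondrial genes were called with AngII, namely 13 protein, 2 ribosomal RNA genes and the transfer RNA gene AY172581.2, where 1.46% of all genes were called. The DESeq2 adjusted p of the protein genes lay between 1.84e-06 and 0.0178.

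With TRV023, both ribosomal RNA genes had positive estimates, opposite in sign to the protein genes. The log2 fold change of AY172581.9 was 0.52 (SE 0.24, 95% interval -0.02 to 1.06) and that of AY172581.24 was 0.47 (SE 0.22, 95% interval -0.02 to 0.97), each with an edgeR adjusted p of 0.909. Of 28 mitochondrial genes tested with TRV023, edgeR called 0 and DESeq2 called 0, and 0 had an unadjusted p under 0.05. The share of all genes called was 0.00658% by edgeR and 0.74% by DESeq2. With losartan the estimates were 0.22 (SE 0.25) and 0.34 (SE 0.39). Of 29 mitochondrial genes tested with losartan, edgeR called 0 and DESeq2 called 0, and 0 had an unadjusted p under 0.05. Over all genes, edgeR called 0% and DESeq2 0.0397% with losartan.

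Reads of the ribosomal RNA genes made up a larger portion of the mitochondrial reads in AngII and TRV023 lungs than in vehicle lungs. In vehicle lungs AY172581.9 and AY172581.24 averaged 470 and 406 FPKM, below every protein gene except Mt-atp8. The library selection is not named in the sources used here, so these reads cannot be taken as the amount of ribosomal RNA in the lung. Its part in the differences was not tested. Both genes together held 2.86%, 2.41% and 2.03% of mitochondrial counts with AngII, against 1.44%, 1.70% and 1.85% with vehicle. They held 3.33%, 2.69% and 2.70% with TRV023, and 1.49%, 2.16% and 1.43% with losartan. The AngII and TRV023 libraries were all above the vehicle libraries, and losartan overlapped vehicle. Group means were 2.43% ± 0.417 with AngII, 2.90% ± 0.368 with TRV023, 1.69% ± 0.402 with losartan and 1.66% ± 0.211 with vehicle (SD, n = 3 each). AngII and TRV023 thus lay on the same side of vehicle in this ratio, although the protein genes lay above vehicle with AngII and their estimates lay below it with TRV023. The comparison with vehicle rests on the same 3 vehicle libraries in each case. With 3 against 3 libraries an exact permutation test cannot go below p = 0.1, and no p-value is given for these shares.

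Per 100 reads of the protein genes, AY172581.9 had 1.30, 0.992 and 0.945 reads with AngII and 1.56, 1.02 and 1.19 with TRV023. It had 0.726, 0.714 and 0.633 with losartan and 0.701, 0.702 and 0.690 with vehicle. Vehicle libraries were tightly grouped, and every AngII and TRV023 library was above them. AY172581.24 had 1.65, 1.48 and 1.13 reads per 100 with AngII and 1.88, 1.74 and 1.58 with TRV023, against 0.787, 1.49 and 0.824 with losartan and 0.758, 1.03 and 1.20 with vehicle. For this gene the TRV023 libraries were all above vehicle and the AngII libraries overlapped it. The FPKM ratio of AY172581.24 to AY172581.9 overlapped vehicle under each drug.

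The balance between complexes within the protein reads also differed, by small amounts. Complex I genes held 23.1%, 23.6% and 23.6% of protein-gene reads with AngII, 24.2%, 23.97% and 23.9% with TRV023, 24.6%, 25.7% and 25.6% with losartan and 26.1%, 25.1% and 24.9% with vehicle. Complex IV genes held 58.4%, 56.8% and 57.6% with AngII, 56.3%, 57.5% and 56.2% with TRV023, 55.5%, 54.9% and 55.0% with losartan and 54.2%, 55.8% and 55.1% with vehicle. In both the AngII and TRV023 groups, complex I lay below all vehicle libraries and complex IV above them, and losartan overlapped vehicle. The same held when shares were taken from FPKM in place of counts. Complex V overlapped vehicle under each drug. Complex III, that is Mt-cyb, held 8.18%, 8.27% and 8.27% with AngII, against 8.54%, 8.74% and 8.31% with vehicle, and its shares of FPKM overlapped.

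By gene, the shares of protein reads of ND1, Mt-nd2, Mt-nd4 and Mt-cyb lay below vehicle in every AngII library and those of Mt-co1 and Mt-atp8 above it. Those of ND1 and Mt-nd4l lay below vehicle in every TRV023 library, and with losartan all shares overlapped vehicle. These shares were not tested, and there is no count over other genes to set beside them. ND1 held 4.95%, 5.002% and 5.08% of protein-gene reads with AngII, 5.06%, 5.12% and 5.14% with TRV023 and 5.63%, 5.72% and 5.56% with vehicle. Mt-co1 held 37.5%, 36.4% and 37.1% with AngII and 34.1%, 35.6% and 35.0% with vehicle. Shares of a fixed total are not independent, since a higher share of Mt-co1 lowers the rest.

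**Figure D4:**
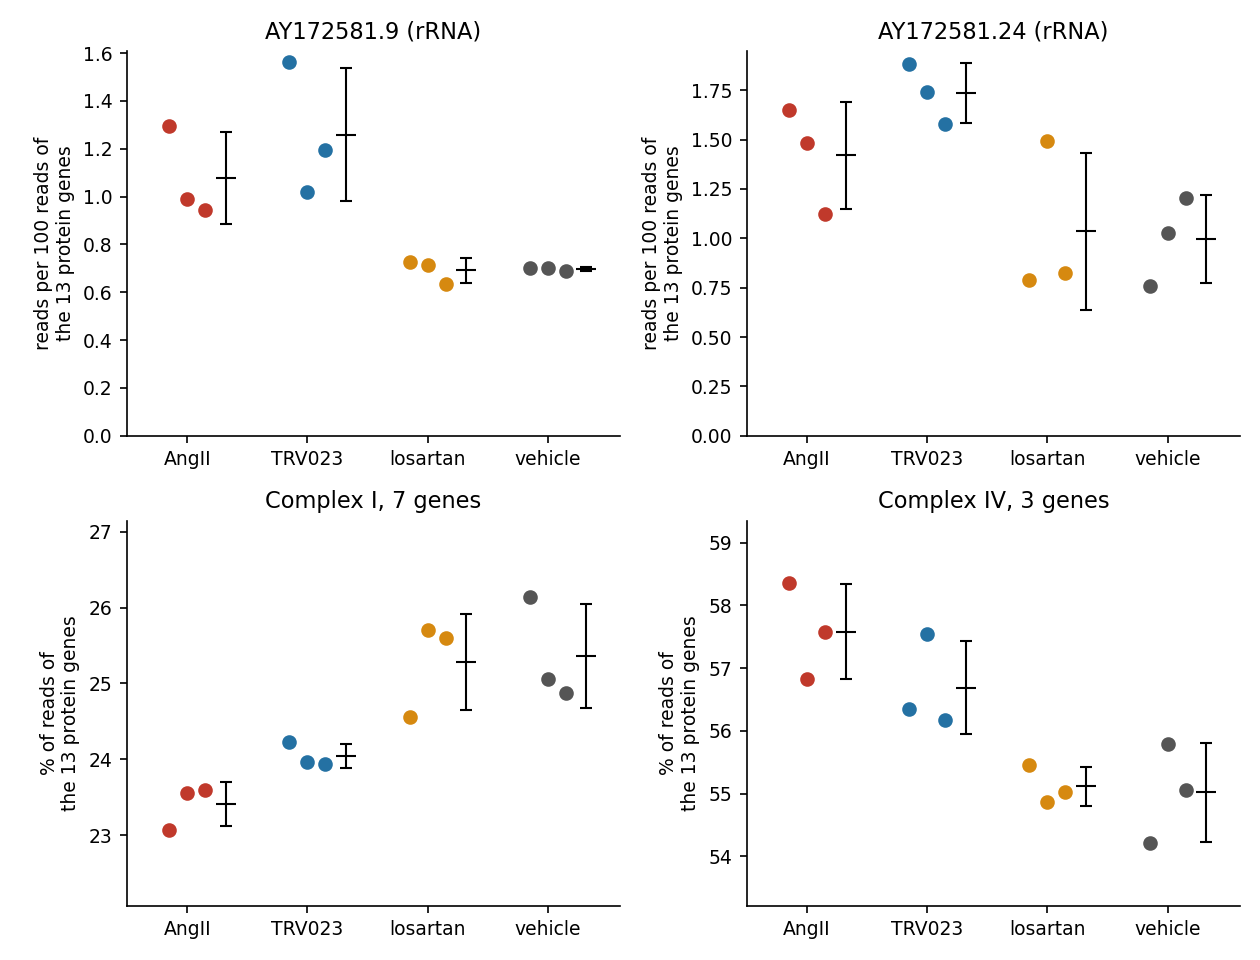
Upper plots, reads of each ribosomal RNA gene per 100 reads of the 13 protein genes. Lower plots, the percent of protein-gene reads from the complex I and complex IV genes, on axes that do not start at 0. Points are libraries and bars the mean ± SD (n = 3). AngII and TRV023 lie above vehicle for AY172581.9 and complex IV and below vehicle for complex I.

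Transfer RNA genes gave few reads. They span only 60 to 75 bases by the annotation, and the 21 genes collected 22071 counts over 12 libraries, or 0.115% to 0.146% of mitochondrial counts per library, with every drug overlapping vehicle. A single gene, AY172581.2 (minus strand, MT positions 15348 to 15415), held 36.4% of the transfer RNA counts, and the 5 most abundant held 76.0%. At the other end, 5 genes were at 0 in at least 1 library where they were listed. The files list 20 of these genes in the AngII table, 20 in the TRV023 table and 18 in the losartan table.

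AY172581.2 had 844, 1091 and 853 counts with AngII, against 605, 676 and 498 counts with vehicle, and 281, 469 and 656 counts with TRV023. Its log2 fold change with AngII was 0.90 (SE 0.18, edgeR adjusted p = 0.295). The 15 transfer RNA genes that passed the count filter with AngII all had positive estimates (47.4% of all genes did), with a median of 0.87. Of these, 6 were higher at an unadjusted edgeR p under 0.05, where 6.54% of all genes were. In 5 the AngII libraries were all above vehicle on TMM-scaled CPM, where 9.46% of all genes tested had this. These 5 were AY172581.2, AY172581.7, AY172581.14, AY172581.20 and AY172581.23. With TRV023, 11 of the 13 that passed had negative estimates, where 49.7% of all genes had positive ones. There, 1 gene, AY172581.23, had all its libraries below vehicle on that scale, where 5.56% of all genes tested did. With losartan, 11 of 14 had positive estimates, where 51.3% of all genes did. Of the 14, 1 gene, AY172581.7, had all its libraries above vehicle on that scale, where 2.78% of all genes did. On FPKM its losartan libraries overlapped vehicle.

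Log2 fold changes on the minus strand were close to those on the plus strand. Minus-strand genes held 0.819% to 0.965% of mitochondrial counts, with every drug overlapping vehicle. The 5 minus-strand transfer RNA genes tested with AngII had a median log2 fold change of 0.90, and the 10 on the plus strand had 0.84. With TRV023 the medians were -0.45 over 6 minus-strand genes and -0.51 over 7 plus-strand genes. The ratio of Mt-nd6 to its opposite-strand neighbour Mt-nd5, on FPKM, ran between 68.9% and 88.1% over the 12 libraries and did not separate any drug from vehicle. Whether the reads were counted by strand is not given in the sources used here, so overlapping genes on opposite strands may share reads. Without a strand rule, any gene may also take reads of the opposite strand that cross its position. The likeness of the strands is therefore not read as a result.

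The 3 drugs were compared directly in 1 fit of the 12 libraries, with 32 mitochondrial genes tested in each of 3 pairs. The median of the ribosomal RNA genes was 1.20 for AngII against losartan and 0.98 for AngII against TRV023. The protein genes had their largest median for AngII against TRV023. Mt-co1 differed by 1.29 on the log2 scale (95% interval 0.65 to 1.93), and the 13 protein genes had a median of 1.23 and a range of 1.13 to 1.66. The estimates were smaller for both ribosomal RNA genes, at 1.001 (95% interval 0.46 to 1.54) for AY172581.9 and 0.95 (95% interval 0.23 to 1.67) for AY172581.24. Of the 32 genes, 26 had an unadjusted edgeR p under 0.05, all higher with AngII, where 5.43% of all genes were. After adjustment edgeR called 0 mitochondrial genes and 0% of all genes, and the lowest adjusted p of a protein gene was 0.262. DESeq2 called 17 of the 32, namely the 13 protein genes, AY172581.9, AY172581.2, AY172581.7 and AY172581.10, and gave no adjusted p for 2, with 1.52% of all genes called.

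Between AngII and losartan, 8 of 32 mitochondrial genes had an unadjusted edgeR p under 0.05, all higher with AngII, where 4.69% of all genes were. They were 6 protein genes, among them Mt-co2 (0.79, SE 0.29), and both ribosomal RNA genes (1.31, SE 0.25, for AY172581.9). The adjusted count was 0 by edgeR, as for all genes (0%), and 1 by DESeq2, AY172581.9, where DESeq2 called 0.72% of all genes. Between TRV023 and losartan, 6 of 32 had an unadjusted p under 0.05, all lower with TRV023, where 2.27% of all genes were. The protein genes had a median of -0.62 and Mt-atp8 the lowest estimate (-0.96, SE 0.34), while the ribosomal RNA genes had estimates of 0.31 (SE 0.25) and 0.14 (SE 0.33). The adjusted count was 0 by edgeR and 0 by DESeq2, beside 0% and 0.0832% of all genes.

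The nuclear genes that supply the remaining subunits of the same complexes had mostly positive estimates with AngII, with smaller medians. Their list also holds Atpif1, which encodes an inhibitor of ATP synthase and is counted with complex V. Of 67 nuclear subunit genes tested, 62 had positive estimates with AngII, with a median log2 fold change of 0.29 against 0.87 for the mitochondrial subunits and -0.02 for all genes. Over all genes tested, 47.4% had positive estimates. At an unadjusted edgeR p under 0.05, 30 were higher and 1, the complex I core subunit Ndufs1, was lower (-0.34, SE 0.13), beside 6.54% of all genes higher and 5.39% lower. None passed adjustment, with a lowest adjusted p of 0.295. DESeq2 called 1 of the 67, Ndufa13, a share near the 1.46% it called over all genes. The medians were 0.30 for 31 subunits of complex I, 0.24 for 7 of complex III, 0.37 for 13 of complex IV and 0.32 for 16 of complex V.

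Ndufa13, an accessory subunit of complex I, had 65.9 to 81.6 CPM with AngII and 43.1 to 59.4 CPM with vehicle, a log2 fold change of 0.73 (SE 0.17). Cox4i1, a nuclear subunit of complex IV, had 379 to 484 CPM with AngII and 315 to 380 CPM with vehicle, and a log2 fold change of 0.51 (SE 0.16), with ranges that met at their edges. Atpif1, the inhibitor of ATP synthase, had 91.2 to 106 CPM with AngII and 73.3 to 82.2 CPM with vehicle, a log2 fold change of 0.49 (SE 0.13). Uqcrfs1, the iron-sulfur subunit of complex III, had 126 to 145 CPM with AngII and 112 to 122 CPM with vehicle, a log2 fold change of 0.38 (SE 0.12). In these 4 genes the AngII estimate was below that of every mitochondrial protein gene. For Ndufa13 the gap to ND1 (0.75) was much smaller than its SE, so these estimates do not separate them.

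With TRV023 the 67 nuclear subunits had a median of 0.01, with 34 positive, 0 higher and 1, Ndufb2, lower at an unadjusted p under 0.05 (-0.38, SE 0.16), where 2.96% of all genes were lower. With losartan the median was 0.08, with 52 positive and 0 at that p. Over all genes, 49.7% had positive estimates with TRV023 and 51.3% with losartan, so the TRV023 count is near its background. For both drugs edgeR and DESeq2 called 0 of the 67. The highest TRV023 value, 1.30 (SE 0.76) for Atp5f1, came from a gene of at most 8.90 CPM. The mitochondrial and nuclear subunits were thus on the same side of vehicle with AngII, and the nuclear subunits centred near 0 with TRV023, where the mitochondrial subunits had a median of -0.30.

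**Figure D5:**
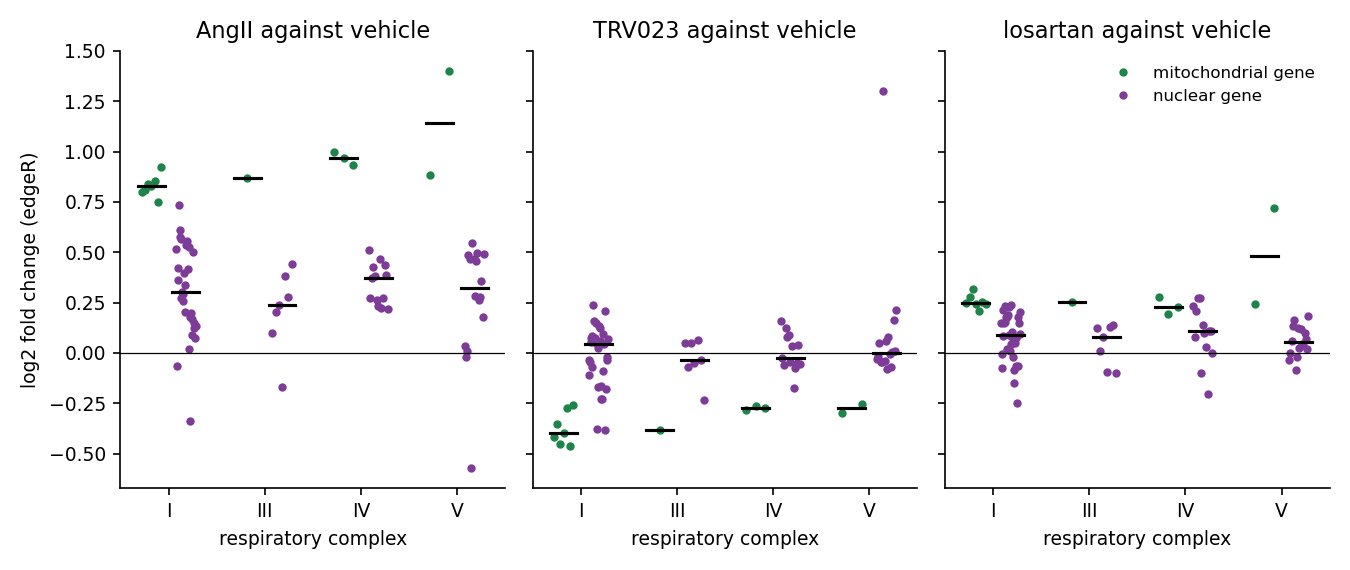
Fitted log2 fold change of each drug against vehicle for the mitochondrial and nuclear subunit genes of complexes I, III, IV and V. Each point is 1 gene and the line is the median. With AngII the mitochondrial genes lie at 0.75 and above, with nuclear medians between 0.24 and 0.37.

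The nuclear genes that maintain and read the mitochondrial genome had medians near 0 under each drug. The 19 genes of mitochondrial DNA transcription and replication had a median of 0.14 with AngII, 0.06 with TRV023 and -0.04 with losartan, and 1 of them, the mitochondrial thymidine kinase Tk2, was higher at an unadjusted p under 0.05, with TRV023 (0.33, SE 0.12). The 29 genes tested for processing, stability and decay of mitochondrial RNA had a median of 0.00 with AngII, with 2 higher at that p, Tbrg4 (0.50, SE 0.15) and the pseudouridine synthase Pus1 (0.41, SE 0.18). Among 11 regulators of mitochondrial biogenesis with a median of -0.04, the nuclear receptor Esrra was higher with AngII (0.48, SE 0.13) and the deacetylase Sirt1 lower (-0.80, SE 0.27) at that p. Of 23 markers of mitochondrial content with a median of 0.09, the chaperone Hspe1 was higher (0.39, SE 0.14) and the chaperone Hspa9 lower (-0.52, SE 0.15). At that p, 6.54% of all genes were higher and 5.39% lower with AngII, and 2.61% were higher with TRV023, so these counts are near the background and nothing is read from them. In these 4 lists, edgeR and DESeq2 called 0 genes with any drug.

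Levels of other tissues' markers were looked at in the same libraries, because heart, skeletal muscle and brown fat are rich in mitochondria. Of 12 cardiac muscle genes, 6 (Myh6, Myl7, Nppa, Sln, Myl2 and Myl3) were under 1 CPM in every library, and the summed level was 22.2 to 64.9 CPM with AngII, 29.4 to 44.5 with TRV023, 49.4 to 71.8 with losartan and 42.7 to 437 with vehicle. Of 10 skeletal muscle genes, Myh4, Actn3 and Pvalb were under 1 CPM in every library, and the sum was 35.8 to 51.1 CPM with AngII, 22.8 to 46.6 with TRV023, 26.9 to 34.6 with losartan and 34.9 to 57.8 with vehicle. Of 5 brown fat genes listed in the files, 3 (Plin1, Cox8b and Lep) were under 1 CPM in every library, and the sums were 2.40 to 7.15 CPM with AngII and 3.01 to 12.8 CPM with vehicle. For each of these lists the AngII range of the sums overlapped the vehicle range. Single genes differed at an unadjusted edgeR p under 0.05, at which 6.54% of all genes were higher and 5.39% lower with AngII. The skeletal muscle gene Tnni2, a troponin I, was higher with AngII (1.93, SE 0.76), as 1 of 6 tested in its list. It had at most 5.16 CPM with AngII and 1.19 CPM with vehicle. The cardiac muscle gene Actc1, an actin, was lower with AngII (log2 fold change -2.7, SE 1.10), as 1 of 6 tested. It had 4.35, 15.8 and 52.9 CPM with AngII and 29.6, 46.3 and 422 CPM with vehicle. These ranges overlapped, and 1 vehicle library lay far above the rest.

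Markers of other lung and blood cells, and the length of the nuclear genes read, are given beside these results. Ciliated cell genes summed to 241 to 448 CPM with AngII, 330 to 613 with TRV023, 317 to 484 with losartan and 407 to 651 with vehicle, and 6 of 9 were lower with AngII at an unadjusted p under 0.05, where 5.39% of all genes were, among them Rsph1 (-1.17, SE 0.34). The 11 platelet genes found summed to 108 to 184 CPM with AngII, 109 to 161 with TRV023 and 73.1 to 125 with vehicle. The 13 macrophage genes found summed to 1839 to 2077 CPM with AngII, 1965 to 2219 with TRV023 and 1571 to 1870 with vehicle. Neutrophil genes summed to 1692 to 2693 CPM with AngII, 919 to 1550 with TRV023 and 483 to 2427 with vehicle. Alveolar type 2 genes summed to 18491 to 24248 CPM with AngII, 11990 to 18961 with TRV023 and 12872 to 27462 with vehicle. With AngII the sums of these 5 lists all overlapped vehicle, and with TRV023 only the macrophage sum did not, every library being above vehicle.

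Single marker genes passed DESeq2's test. With AngII, where DESeq2 called 1.46% of all genes, these were the macrophage genes Trem2, Fabp4 and C1qa and the platelet gene Pf4. With TRV023, where it called 0.74%, they were the macrophage genes Cd163 and Trem2, the neutrophil genes Camp, Ngp and S100a8 and Pf4, all higher than with vehicle. Pf4 did not stand for its list with TRV023. Of 10 platelet genes tested, 2 had positive estimates, and the median log2 fold change was -0.43. Pf4 alone had 77.9 to 124 CPM with TRV023, so it weighs heavily in the platelet sum. The edgeR log2 fold changes were 1.39 (SE 0.32) with AngII and 1.06 (SE 0.24) with TRV023 for the receptor Trem2, and 1.95 (SE 0.33) with TRV023 for the scavenger receptor Cd163. Those of the granule gene Camp and the chemokine Pf4 were 1.69 (SE 0.26) and 0.85 (SE 0.20) with TRV023. None passed adjustment by edgeR. At an unadjusted edgeR p under 0.05, 4 of 12 macrophage genes were higher with AngII (6.54% of all genes), and 2 of 12 macrophage and 5 of 11 neutrophil genes were higher with TRV023 (2.61% of all genes).

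Nuclear genes under 1000 bases took 15.4%, 17.7% and 17.0% of nuclear reads with AngII, all above the 14.1%, 14.2% and 15.3% of vehicle. With the trend of each library with gene length removed, the median of the mitochondrial protein genes with AngII was 0.76 and AY172581.9 was not called. The part of these features in the mitochondrial differences was not tested.

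Over 12 libraries, Pearson's r was taken between the log2 level of each of 10859 nuclear genes and the log2 ratio of mitochondrial protein reads to nuclear reads. The libraries share their group structure, depth and length trend, so the values are a description. The highest were Rnf5 (r = 0.94), Txn2 (0.93), Ranbp3 (0.93), Tomm6 (0.93) and Ubxn6 (0.93), and the lowest were Tm9sf2 (-0.92), Exoc1 (-0.90), Pibf1 (-0.90), Fgfr1 (-0.90) and Egfr (-0.89). Txn2 is the mitochondrial thioredoxin and Tomm6 a small subunit of the outer-membrane import complex. Txn2 had 129, 150 and 152 CPM of nuclear reads with AngII, against 115, 112 and 106 with vehicle, and with group means removed its r was 0.82. Nuclear subunits had median r values of 0.58 for complex I, 0.51 for complex III, 0.61 for complex IV and 0.60 for complex V, beside -0.02 over all genes, 0.28 for the transcription and replication genes and -0.15 for the RNA processing genes. Among the cell type lists the median r was 0.71 over 5 platelet genes, 0.57 over 3 skeletal muscle genes and -0.56 over 8 ciliated cell genes.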

How the data were processed

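RNA from lungs of 12 MCT rats, 3 per group by the labels, was sequenced by the study. The sources used here do not name the aligner, the counter, the genome build, the annotation, the library selection or the strand rule. For each drug against vehicle, the authors deposited raw read counts per gene and FPKM values. FPKM equalled count over length and library total within 0.1% for 88.5%, 88.6% and 88.7% of genes in the AngII, TRV023 and losartan tables and for all mitochondrial genes. The deposited tables also hold the authors' fold changes, p-values and scaled values, which were not used. Each table lists its own genes, so shares use all genes listed for that group, and 16957 genes are in all 3 tables.

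The counts were tested with edgeR 4.0.16 in R 4.3.3 (filterByExpr, TMM, glmQLFit, glmQLFTest, Benjamini-Hochberg over all genes tested, threshold 0.05), drug with vehicle in 6 libraries, and drug pairs in 12. Scripts were tested on simulated data. Alternatives were DESeq2 1.42.0, limma 3.58.1 (voom, and log2(FPKM + 1) for mean FPKM of at least 1), other scalings and count filters, a length correction, 12 libraries in 1 fit, animals numbered 96x left out and each library left out. Shares of reads are described without p-values. An exact permutation test over all groups at once was run on the mitochondrial share and the ribosomal RNA share, and its outcome is not used here. Each library has its own animal number in the labels. Scripts used Python 3.11.15. Correlations used log2(CPM + 0.5) of nuclear genes at a mean of at least 5 CPM.

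The genes were defined by chromosome. The lists of nuclear and cell type genes, and the choice to describe these genes, were made with earlier results of these data known. Mitochondrial genes are named singly or counted by class. Names from a list were drawn from its 2 genes with the lowest p per comparison with vehicle, not all of which are printed. The 5 nuclear genes at each end of the correlation with the ratio of mitochondrial protein reads to nuclear reads are also named. Ndufs1, C1qa and S100a8 with TRV023 were named after their values were seen.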

Additional observations from a re-analysis of the deposited data

Results flagged for a closer look

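AY172581.23, a plus-strand transfer RNA gene at MT positions 11538 to 11605, was flagged because its AngII libraries were all above and its TRV023 libraries all below the same 3 vehicle libraries. Over all genes tested, 9.46% had AngII libraries all above vehicle and 5.56% had TRV023 libraries all below. Genes with both were not counted. Among transfer RNA genes the directions were common, with all 15 tested positive with AngII and 11 of 13 negative with TRV023. With AngII, AY172581.23 had a log2 fold change of 0.70 (SE 0.24, edgeR adjusted p = 0.372), at 10.2, 14.8 and 12.99 TMM-scaled CPM, against 8.28, 8.47 and 6.65 in vehicle libraries. With TRV023 it had -0.51 (SE 0.26, edgeR adjusted p = 0.945), at 4.46, 6.28 and 6.48 CPM, against 8.68, 8.87 and 6.98 in vehicle libraries, which are scaled anew in each comparison. The difference between AngII and TRV023, tested itself, was 1.21 (SE 0.35), with adjusted p values of 0.286 by edgeR and 0.0591 by DESeq2, so it did not pass. The gene had 70 to 130 counts with TRV023 and 139 to 174 counts with vehicle.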

How the results depend on the processing

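The count of mitochondrial genes called by edgeR with AngII was 1. It was 0 with all 12 libraries in 1 fit, with library totals in place of TMM, with limma on log2(FPKM + 1), with the gene length trend removed, without the animals numbered 96x, and without any 1 of the 6 libraries (0 to 0). It was 16 with DESeq2. DESeq2 also gave 17 in place of 0 for AngII against TRV023 and 1 in place of 0 for AngII against losartan. The remaining counts were the same in every alternative run. The median of the protein genes stayed between 0.73 and 0.88 with AngII (0.76 to 1.05 with 1 library left out) and between -0.39 and -0.29 with TRV023 (-0.57 to -0.19). The log2 difference in ribosomal RNA share stayed between 0.55 and 0.63 with AngII (0.42 to 0.67) and between 0.80 and 0.89 with TRV023 (0.70 to 0.89).

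Losartan values turned in direction. Without the animals numbered 96x, which left 1 losartan and 2 vehicle libraries and assumes that the lone library varies like the others, the median of the protein genes was -0.49 (0.25 in the full comparison, -0.01 to 0.48 with 1 library left out). The log2 difference in mitochondrial share was -0.46 (0.15 in full, -0.09 to 0.40). Gene values in that setting were -0.47 for AY172581.9, -0.71 for AY172581.24, -0.49 for ND1, -0.62 for Mt-nd2, -0.50 for Mt-co1, -0.58 for Mt-co2, -0.41 for Mt-atp8, -0.47 for Mt-atp6, -0.48 for Mt-co3, -0.24 for ND3, -0.63 for Mt-nd4l, -0.62 for Mt-nd4, -0.64 for Mt-nd5, -0.48 for Mt-nd6 and -0.48 for Mt-cyb. With 1 library left out in turn the losartan values ran from -0.068 to 0.68 for AY172581.24, from -0.047 to 0.48 for ND1, from -0.031 to 0.52 for Mt-nd2, from -0.00086 to 0.43 for Mt-co2, from -0.028 to 0.46 for Mt-co3, from -0.072 to 0.44 for ND3, from -0.041 to 0.49 for Mt-nd5, from -0.055 to 0.43 for Mt-nd6 and from -0.014 to 0.48 for Mt-cyb. The lowest was without Los_965, or without Los_964 for AY172581.24. The cause was not tested. No AngII or TRV023 value of a protein or ribosomal RNA gene changed sign. The transfer RNA genes are not covered by that statement.

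No paired analysis was possible because the groups share no animal numbers. Depth limits the transfer RNA genes, of which 5 were at 0 in at least 1 library where the files list them.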
